A study of Homo sapiens with 9 samples.

Results

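The respiratory chain genes comprised the nuclear genes with symbols starting in NDUF, UQCR, COX4 to COX8 or ATP5, the genes *SDHA* to *SDHD*, and the protein-coding genes of the mitochondrial genome. Symbols were looked up from the Ensembl identifiers of the count table, and a gene was kept if its normalized count averaged at least 1 over the 9 libraries. Of 19984 genes in the table, 111 symbols matched and 109 genes were kept, 96 of them nuclear and 13 mitochondrial. *COX4I2* and *COX6A2* fell below the minimum, and all 109 members passed the filter of each test. The nuclear set held 48 genes of complex I, 4 of complex II, 9 of complex III, 15 of complex IV and 20 of ATP synthase. The mitochondrial set held 7 genes of complex I, 1 of complex III, 3 of complex IV and 2 of ATP synthase.

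RNA-seq was performed in LNCaP, an androgen-responsive human prostate cancer cell line. The groups compared were the clones del-4 and del-56, in which CRISPR-Cas9 had removed the promoter and the beginning of the lncRNA gene *EPCART*, and a WT clone of the same line. Each group was 1 clone with 3 cultures, so the replicate spread is that between cultures of a clone and a difference between clones cannot be told apart from the effect of the deletion. Cells of all 3 groups were grown for 48 hours in RPMI with fetal bovine serum, per the labels. In the count table the WT columns carry the number 24 in their names, which the sample labels do not have, and they were matched to the WT libraries by the group name and replicate number. *EPCART* itself is not a protein-coding gene and was not analysed here.

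The respiratory chain passes electrons from NADH and succinate to oxygen through complexes I to IV in the inner mitochondrial membrane. Complexes I, III and IV pump protons while doing so, and ATP synthase uses the resulting gradient to make ATP. Complex II, also called succinate dehydrogenase, is encoded by nuclear genes alone. The other complexes are assembled from subunits of both genomes. In luminal prostate cells the chain is known for its link to citrate, which these cells secrete, and to the citric acid cycle.

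The recovered reads of all genes summed to between 91074556 and 118877134 per library, where a read on overlapping genes can enter more than once. All 9 luminal prostate markers examined, including *KLK3*, had normalized counts of 5012 to 95875 in every library, while the basal marker *KRT5* stayed at or below 0.965 and the T cell marker *CD3E* was at 0. Among 10 markers of basal, fibroblast, immune and endothelial cells, *KRT14* (19.4 to 64.3), *COL1A1* (937 to 1359) and *VWF* (288 to 719) exceeded 10 in every library. Their means in del-4, del-56 and WT were 40.3, 32.2 and 26.9 for *KRT14*, 1253, 1258 and 991 for *COL1A1*, and 304, 641 and 596 for *VWF*, and their part in the results below was not tested. Mitochondrial genes took 1.51, 1.35 and 1.39% of these summed gene reads in del-4, 1.41, 1.22 and 1.22% in del-56 and 1.37, 1.08 and 1.06% in WT. Replicate 1 had the highest share in each clone, and WT replicate 1 stood apart from the other WT libraries, so mitochondrial results are also given without it. The values showed that reads had been counted over the whole span of a gene on both strands, since a gene that lies around another had at least 98% of the inner gene's value in 125 of 127 pairs on opposite strands. Of the 109 members, 47 share bases with a gene whose value was at least 10% of their own, and many of these overlaps are given with the member.

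Promoters of the nuclear members were read from RefSeq (GRCh38.p14) as the 250 bases before and 50 bases after a transcription start, with 95 entries for 77 of the 96 genes. The motifs searched for on both strands were GCGCATGCG for *NRF1*, CCGGAAG for ETS factors such as *GABPA*, and AAGATGGCG for *YY1*. *NRF1*, *GABPA* and *YY1* are transcription factors known for sites in promoters of nuclear respiratory genes. The *NRF1* motif nearly equals its own reverse complement, so both strands can match at one place, and the letters of the motifs may overlap. *NRF1* letters were found in 12.6% of member promoters and 1.92% of all 35116 promoters. ETS letters were in 26.3% and 10.3%, and *YY1* letters in 12.6% and 1.75%. In the 19405 promoters of other counted genes with a mean of at least 1, the shares were higher than over all promoters. They were 2.51% for *NRF1*, 13.9% for ETS and 2.64% for *YY1* letters. The promoters below belong to genes whose values are described further on. ETS letters stood before members that rose in both clones (*SDHB*, *UQCRH*, *ATP5PF*) and members that fell in both (*COX4I1*, *COX5B*). In these promoters *YY1* letters were marked for *SDHB* and *ATP5PF*, and *NRF1* letters for *ATP5PF* alone. Capitals mark the motif letters.
SDHB: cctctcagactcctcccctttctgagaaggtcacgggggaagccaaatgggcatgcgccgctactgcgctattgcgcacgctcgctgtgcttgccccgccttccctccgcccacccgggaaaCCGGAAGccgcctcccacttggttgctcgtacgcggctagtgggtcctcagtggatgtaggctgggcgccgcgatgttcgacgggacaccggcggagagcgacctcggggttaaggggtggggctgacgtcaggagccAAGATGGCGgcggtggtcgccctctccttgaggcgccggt
UQCRH: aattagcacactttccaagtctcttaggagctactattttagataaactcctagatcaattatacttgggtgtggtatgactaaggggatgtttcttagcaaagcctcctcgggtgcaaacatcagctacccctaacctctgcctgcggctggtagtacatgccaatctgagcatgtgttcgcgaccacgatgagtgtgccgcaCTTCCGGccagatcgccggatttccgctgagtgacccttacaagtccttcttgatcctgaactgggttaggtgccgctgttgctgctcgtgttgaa
ATP5PF: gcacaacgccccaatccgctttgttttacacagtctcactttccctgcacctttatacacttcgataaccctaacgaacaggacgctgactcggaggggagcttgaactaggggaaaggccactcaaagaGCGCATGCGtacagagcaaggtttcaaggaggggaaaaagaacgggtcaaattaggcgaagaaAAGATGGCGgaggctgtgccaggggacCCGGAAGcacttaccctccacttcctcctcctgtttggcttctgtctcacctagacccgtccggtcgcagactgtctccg
COX4I1: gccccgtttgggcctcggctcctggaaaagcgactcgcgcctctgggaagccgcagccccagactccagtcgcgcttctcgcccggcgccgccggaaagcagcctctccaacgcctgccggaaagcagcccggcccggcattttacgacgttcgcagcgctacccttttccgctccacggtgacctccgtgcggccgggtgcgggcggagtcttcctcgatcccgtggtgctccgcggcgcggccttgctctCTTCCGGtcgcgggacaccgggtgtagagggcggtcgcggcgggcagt
COX5B: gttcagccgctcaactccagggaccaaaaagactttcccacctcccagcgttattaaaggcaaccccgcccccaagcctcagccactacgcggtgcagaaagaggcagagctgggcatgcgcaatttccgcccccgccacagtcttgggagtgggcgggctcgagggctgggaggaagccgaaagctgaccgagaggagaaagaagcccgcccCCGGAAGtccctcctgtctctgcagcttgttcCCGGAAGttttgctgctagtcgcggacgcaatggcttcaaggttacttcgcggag
In the order printed, these windows are chr1:17053983-17054282 (minus strand), chr1:46303448-46303747 (plus strand), chr21:25735005-25735304 (minus strand), chr16:85799445-85799744 (plus strand) and chr2:97645812-97646111 (plus strand). A match describes the letters and is not a measured binding site.

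Deletion clones were compared with WT to ask how the transcripts of each complex and each genome differed. In del-4, genes of both genomes were more often higher than lower. In del-56, calls among nuclear genes were split between the directions, and the share of mitochondrial genes called higher was near the background. Of the 96 nuclear members, 47 (49.0%) were called higher and 17 (17.7%) lower in del-4, against a background of 20.5% higher and 20.2% lower over the 17401 genes tested. In del-56, 20 (20.8%) were higher and 23 (24%) lower, against 19.2% and 20.5% of 17481 genes, so that these shares were near the background. The median log2 fold change of the nuclear members was 0.11 in del-4 but 0.031 in del-56, beside -0.0028 and -0.0011 for all genes. Without the read-through genes *NDUFC2-KCTD14* and *ATP5MF-PTCD1*, which share most reads with *NDUFC2* and *ATP5MF*, and the copies *UQCRHL* and *ATP5MGL*, 45 of 92 were higher and 17 lower in del-4, and 19 higher and 23 lower in del-56. Of the 23 members with ETS letters in a promoter, 14 were higher and 4 lower in del-4, and 6 higher and 4 lower in del-56. Of the 12 with *NRF1* letters, 6 were called in del-4, all higher, and 2 were higher and 1 lower in del-56. Of the 10 with *YY1* letters, 5 were called in del-4, all higher, and 2 were higher and 3 lower in del-56. Of the 40 with a promoter entry but none of the motifs, 17 were higher and 11 lower in del-4, and 8 higher and 13 lower in del-56. As these are bulk libraries, a change in cell composition and a change in RNA per cell cannot be told apart.

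The balance between directions in del-4 depended on how libraries were scaled. After rescaling to the same total, 24 nuclear members were called higher and 26 lower in del-4, and 15 higher and 27 lower in del-56. The median of all genes shifted by -0.069 and -0.029. Calls over all 17401 genes moved too, from 3565 higher and 3517 lower to 2364 and 4932 in del-4. In del-56 they moved from 3358 and 3580 to 2751 and 4005 of 17481 genes. Leaving out WT replicate 2 or 3 gave 29 or 22 higher in del-4, and leaving out del-4 replicate 1 or 3 gave 25 or 27. Over all genes, 2987 or 2802 and 2927 or 2741 were called higher in these fits. In del-56 the count of 20 became 10 or 7 without WT replicate 2 or 3, and 8 or 7 without del-56 replicate 2 or 3. It became 44 when both del-56 and WT were left without replicate 1. In the same order, 2648 or 2583, 2561 or 2543, and 2987 of all genes were called higher.

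**Figure D1:**
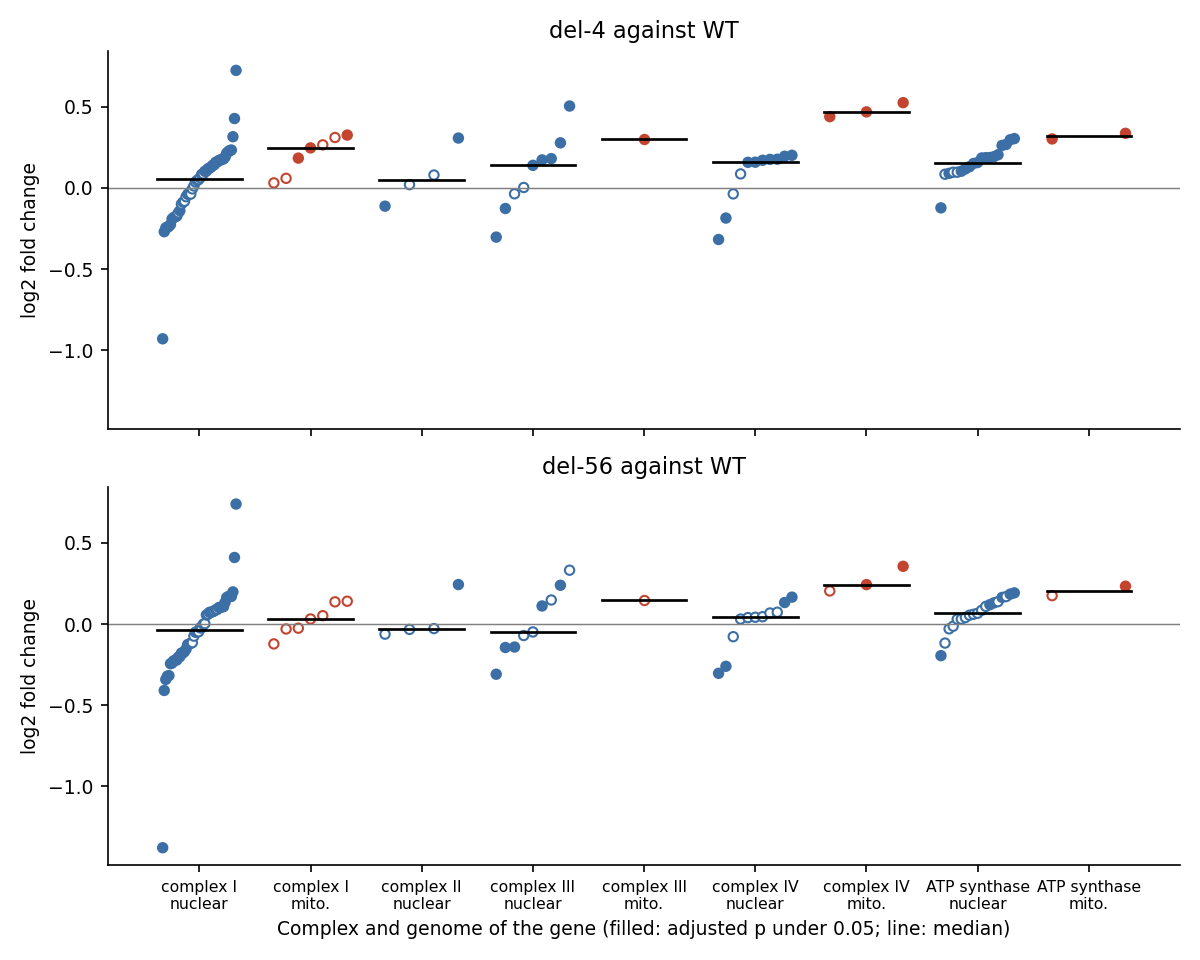
Log2 fold change against WT (vertical axis) of the 104 members with a mean of at least 100, by complex and genome, for del-4 above and del-56 below. Each point is a gene (filled where adjusted p was under 0.05) and lines are medians. ATP synthase and mitochondrial complex IV genes lay mostly above 0 in del-4, and the far low point of nuclear complex I is *NDUFA4L2*.

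Mitochondrial genes encode subunits at the membrane core of the complexes. All 13 had a fold change above 0 in del-4, with a median of 0.30 and a range of 0.031 to 0.53 on the log2 scale. Of the 13, 9 were called higher in del-4 (69.2%, background 20.5%). In del-56, 3 were called higher (23.1%, background 19.2%), a share near the background, and the median was 0.14. No mitochondrial gene was called lower in either clone by limma, and none had an unadjusted p under 0.05 in that direction with limma, edgeR or DESeq2. Without WT replicate 1, 13 were higher in del-4 and 9 in del-56. With replicate 1 left out of both the deletion clone and WT, the counts were 12 and 9. Leaving out WT replicate 3 instead gave 5 and 0, and leaving out WT replicate 2 gave 6 and 0. In the same order, 3275 and 2899, 2570 and 2987, 2802 and 2583, and 2987 and 2648 of all genes were called higher. In del-56 the mitochondrial count was also 0 without del-56 replicate 1 or 3, under quantile normalization and with DESeq2, and 1 without del-56 replicate 2. Over all genes, 3100, 2543, 3589, 3369 and 2561 were called higher in these fits. In the del-56 fits with a mitochondrial count of 0, between 0 and 2 mitochondrial genes were higher at an unadjusted p under 0.05.

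The 3 mitochondrial genes of complex IV had the largest rises of the 13 in del-4. *MT-CO1* encodes the catalytic subunit that holds the oxygen-reducing site. *MT-CO1* had normalized counts of 462148, 393227 and 413195 in del-4, 399759, 339237 and 339413 in del-56 and 360065, 294509 and 283936 in WT. The log2 fold change was 0.44 (SE 0.079, limma adjusted p = 0.000200) in del-4 and 0.20 (SE 0.085, limma adjusted p = 0.0693) in del-56. The del-4 libraries were all above the WT libraries, whereas del-56 overlapped WT only at WT replicate 1. *MT-CO2* encodes the subunit that receives electrons from cytochrome c. *MT-CO2* was measured at 167295, 148091 and 161910.0 normalized counts in the del-4 libraries, 141707, 133661 and 132493 in del-56 and 138810.0, 104647 and 104174 in WT. It rose by 0.47 (SE 0.081, limma adjusted p = 0.000134) in del-4 and 0.24 (SE 0.082, limma adjusted p = 0.0271) in del-56. *MT-CO3*, a core subunit without metal centres, rose most of the 13 in both clones. *MT-CO3* had normalized counts of 220469, 190027 and 215825 in del-4, 214815, 164443 and 179882 in del-56 and 169872, 140707 and 126777 in WT. Its change was 0.53 (SE 0.079, limma adjusted p = 3.39e-05) in del-4 and 0.36 (SE 0.10, limma adjusted p = 0.00729) in del-56, where del-56 replicate 2 lay below WT replicate 1. With a library left out, the adjusted p in del-56 reached 0.126 for *MT-CO3* and 0.247 for *MT-CO2*.

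**Figure D2:**
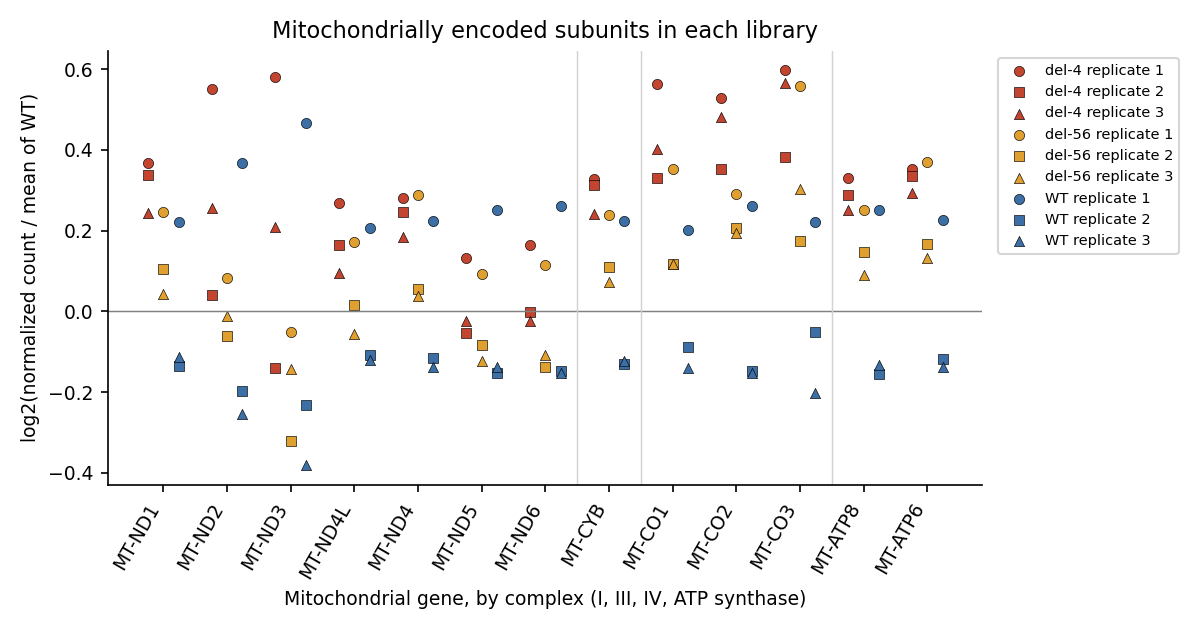
Normalized count of each mitochondrial gene relative to the WT mean (vertical axis, log2), with a point for each library, colour for the clone and shape for the replicate. WT replicate 1 lay above the other WT libraries for all 13 genes, and the del-4 libraries stood clear of all WT libraries for *MT-ND1*, *MT-CYB*, *MT-CO1*, *MT-CO2*, *MT-CO3* and *MT-ATP6*.

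*MT-CYB* encodes cytochrome b, the mitochondrial subunit of complex III. *MT-CYB* was measured at 83438, 82619.9 and 78597 normalized counts in the del-4 libraries, 78460.1, 71832 and 70014 in del-56 and 77658, 60748 and 61126 in WT. The log2 fold change was 0.30 (SE 0.067, limma adjusted p = 0.00142) in del-4 and 0.15 (SE 0.074, limma adjusted p = 0.123) in del-56. The ATP synthase genes *MT-ATP6* and *MT-ATP8* encode membrane subunits and share 46 bases, so that some reads count for both. *MT-ATP6* rose by 0.34 (SE 0.070, limma adjusted p = 0.000751) in del-4 and 0.23 (SE 0.082, limma adjusted p = 0.0331) in del-56, and *MT-ATP8* by 0.30 (SE 0.073, limma adjusted p = 0.00268) in del-4, with a value of 0.18 (SE 0.080, limma adjusted p = 0.0943) in del-56. For 6 of the 13 genes the del-4 libraries did not overlap WT (background 24.8% higher), and for 0 of 13 in del-56 (background 24%).

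Mitochondrial complex I genes varied among themselves. *MT-ND1*, *MT-ND4* and *MT-ND4L* were called higher in del-4, with changes of 0.33, 0.25 and 0.18. *MT-ND4* and *MT-ND4L* share 7 bases. *MT-ND5* and *MT-ND6* had values near 0, which were 0.031 (SE 0.077, limma adjusted p = 0.787) and 0.059 (SE 0.078, limma adjusted p = 0.590) in del-4. *MT-ND6* is the gene that lies on the other strand of the mitochondrial genome. *MT-ND6* had normalized counts of 25309.8, 22566 and 22237 in del-4, 24481, 20527 and 20973 in del-56 and 27061, 20401 and 20329 in WT. Every clone's replicate 1 was its highest library, and the clones overlapped. *MT-ND2* and *MT-ND3* were the most variable. *MT-ND3* was measured at 90932, 55236 and 70349 normalized counts in the del-4 libraries, 58743, 48701 and 55135 in del-56 and 84036, 51790.4 and 46725 in WT. The del-4 and del-56 libraries both overlapped WT, whose replicate 1 lay far above its other libraries, with changes from WT of 0.27 (SE 0.16, limma adjusted p = 0.216) in del-4 and -0.12 (SE 0.14, limma adjusted p = 0.543) in del-56. Per kilobase, the WT mean of normalized counts was highest for *MT-ATP8* (229995) and *MT-CO1* (202877) and lowest for *MT-ND1* (42807) and *MT-ND5* (35479). *MT-ATP8* spans only 207 bases and shares 46 of them with *MT-ATP6*, so its value per kilobase can include reads of *MT-ATP6*. The nuclear member with the highest level per kilobase of its canonical transcript was *ATP5F1B* (85339.6).

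Complex I, NADH dehydrogenase, has 7 core subunits encoded in the nucleus and many further subunits. In del-56, 5 of the 7 core subunits were called lower (71.4%, background 20.5%) and 1 higher (14.3%, background 19.2%), with a median of -0.17. In del-4, 1 was lower and 1 higher (14.3% each, against 20.2% and 20.5% of all genes). *NDUFS1*, which holds iron-sulfur clusters of the electron path, fell in both clones. *NDUFS1* had normalized counts of 14847, 14793 and 14804 in del-4, 14487, 15020.2 and 14638 in del-56 and 17014, 16499.7 and 17237 in WT. The log2 fold change was -0.19 (SE 0.034, limma adjusted p = 0.000172) in del-4 and -0.20 (SE 0.036, limma adjusted p = 0.000327) in del-56, and neither clone overlapped WT. *NDUFV1* binds NADH and FMN. *NDUFV1* was measured at 16835, 16617 and 17166 normalized counts in the del-4 libraries, 15508, 15544 and 15211 in del-56 and 17872, 17275 and 16868 in WT. It had a value of -0.039 (SE 0.035, limma adjusted p = 0.412) in del-4 and fell by 0.17 (SE 0.036, limma adjusted p = 0.00150) in del-56. *NDUFS7* and *NDUFS8* also fell in del-56, at -0.24 and -0.24, while *NDUFV2* was not called (-0.074, SE 0.038, limma adjusted p = 0.143).

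*NDUFS3* was the core subunit called higher, at 0.17 (SE 0.038, limma adjusted p = 0.00131) in del-4 and 0.11 (SE 0.039, limma adjusted p = 0.0427) in del-56. Its span holds *PTPMT1* and *KBTBD4*, which accounted for 67.3% of its value. *PTPMT1* itself was higher by 0.25 in del-4 (limma adjusted p = 0.000141). With those reads removed, WT was at 5790.0 ± 354 (SD, n = 3) for *NDUFS3*, del-4 at 6342 ± 336 and del-56 at 6120.2 ± 18.7. *NDUFS3* also shares 234 bases with *CELF1*, whose value was 105% of its deposited value and whose reads were not removed.

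Among the 32 further subunits, 16 were higher and 6 lower in del-4 (50% and 18.75%, against 20.5% and 20.2% of all genes). In del-56, 6 were higher and 9 lower (18.75% and 28.1%, against 19.2% and 20.5%). *NDUFS5* (ENSG00000168653.11, chromosome 1, positions 39026318 to 39034636, plus strand, GRCh38), a small subunit of the membrane arm, had the largest rise among the complex I subunits. *NDUFS5* had normalized counts of 36199.5, 33682 and 34688 in del-4, 31602, 35523 and 36329 in del-56 and 27748, 25428 and 24617 in WT. Both clones lay above all WT libraries, with changes of 0.43 (SE 0.043, limma adjusted p = 3.31e-07) in del-4 and 0.41 (SE 0.053, limma adjusted p = 1.50e-05) in del-56. *NDUFB10* (ENSG00000140990.15, chromosome 16, positions 1959538 to 1961975, plus strand, GRCh38), also of the membrane arm, fell in both clones. *NDUFB10* was measured at 16733, 15837 and 16854 normalized counts in the del-4 libraries, 14209.9, 15264 and 14368 in del-56 and 19379.7, 19335 and 19475 in WT. Its change was -0.24 (SE 0.035, limma adjusted p = 2.93e-05) in del-4 and -0.41 (SE 0.038, limma adjusted p = 3.70e-07) in del-56.

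*NDUFA4L2* (ENSG00000185633.11, chromosome 12, positions 57234903 to 57240715, minus strand, GRCh38) fell furthest of all members that were called. It is a paralog of *NDUFA4* and is known as a target of the hypoxia factor HIF-1. *NDUFA4L2* had normalized counts of 339, 431 and 439.9 in del-4, 321, 268 and 293 in del-56 and 777, 779.9 and 736 in WT. The log2 fold change was -0.93 (SE 0.11, limma adjusted p = 2.86e-06) in del-4 and -1.38 (SE 0.11, limma adjusted p = 8.95e-08) in del-56. All deletion libraries were below all WT libraries. The gene shares 33 bases with *SHMT2*, whose value was 9124% of its own, so some of its reads may be those of *SHMT2*. *SHMT2* rose by 0.40 in del-4 (limma adjusted p = 7.35e-08) and 0.23 in del-56 (limma adjusted p = 8.58e-05). *NDUFA4*, grouped here by its symbol although it is known as a subunit of complex IV, was higher in both clones. *NDUFA4* was measured at 27219, 24901 and 26703 normalized counts in the del-4 libraries, 21723, 25645 and 25445 in del-56 and 22576, 20275 and 20498 in WT. Its change was 0.32 (SE 0.044, limma adjusted p = 1.48e-05) in del-4 and 0.20 (SE 0.058, limma adjusted p = 0.0119) in del-56, where del-56 replicate 1 fell within the WT range.

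The 8 NDUFAF genes encode factors that assemble complex I and are not part of it. In del-4, 4 were lower (50%, background 20.2%) and 1 higher (12.5%, background 20.5%). In del-56, 2 were lower and 2 higher (25% each, against 20.5% and 19.2% of all genes). *NDUFAF6* had the largest positive change of the called members as deposited, 0.72 (SE 0.035, limma adjusted p = 2.35e-11) in del-4 and 0.74 (SE 0.036, limma adjusted p = 2.36e-10) in del-56. *NDUFAF6* had normalized counts of 24400.3, 23257 and 23788 in del-4, 24484, 23836 and 23866 in del-56 and 14256, 14113 and 14864 in WT. However, its span holds *TP53INP1*, a p53-induced gene, which made up 86.7% of its value and rose by 0.87 in del-4 (limma adjusted p = 3.93e-12) and in del-56 (limma adjusted p = 4.31e-11). With the *TP53INP1* reads removed, WT was at 2802 ± 84.1 (SD, n = 3) for *NDUFAF6*, del-4 at 2655 ± 129 and del-56 at 2836 ± 87.0. The log2 ratio to WT was then -0.078 and 0.018. The remainder may still hold reads of *CCNE2* and *PLEKHF2*, which were not removed. *CCNE2* shares 1146 bases with *NDUFAF6* and had 25.2% of its deposited value, and *PLEKHF2* shares 814 bases and had 5.97%. The falls in del-4 were those of *NDUFAF1* (-0.14), *NDUFAF3* (-0.17), *NDUFAF4* (-0.24) and *NDUFAF7* (-0.23), of which *NDUFAF3* and *NDUFAF7* also fell in del-56. Genes on the other strand overlap 3 of these, with *RTF1* at 362% of the value of *NDUFAF1*, *DALRD3* at 76.5% of *NDUFAF3* and *PRKD3* at 163% of *NDUFAF7*.

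**Figure D3:**
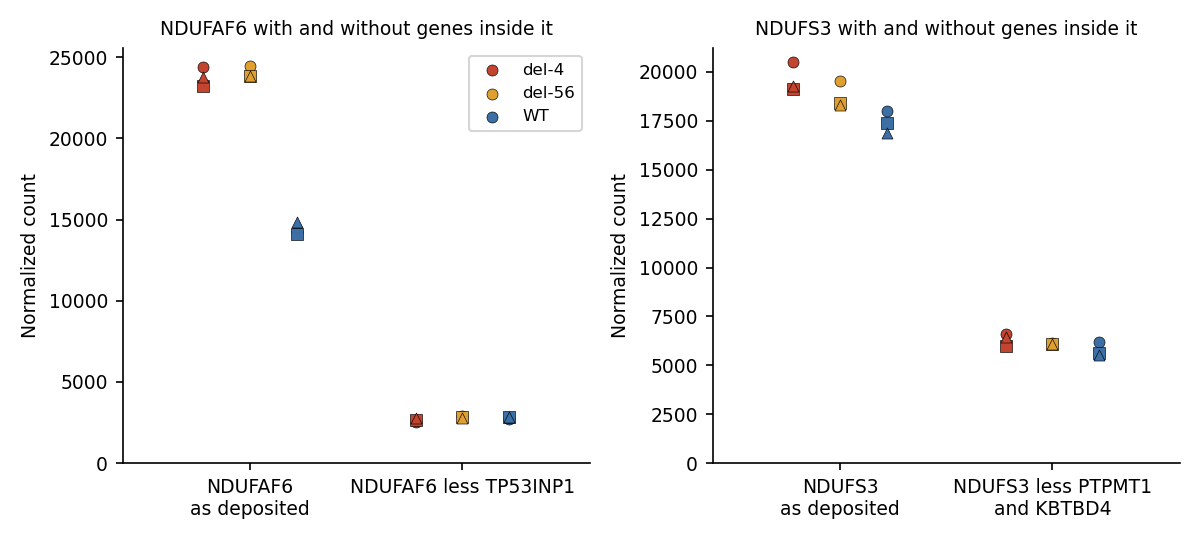
Normalized counts (vertical axis, from 0) of *NDUFAF6* and *NDUFS3* in each library as deposited and after removal of the reads of the genes inside their spans, with colour for the clone and shape for the replicate. *NDUFAF6* was at 14113 to 14864 in WT and at 23257 to 24484 in the deletion clones as deposited, and the clones overlapped WT once *TP53INP1* was removed.

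Complex II links the citric acid cycle to the chain. *SDHB*, its iron-sulfur subunit, was higher in both clones. *SDHB* was measured at 8572, 7844 and 8402 normalized counts in the del-4 libraries, 7522, 8041 and 8178 in del-56 and 6378, 6785 and 6885 in WT. The change was 0.31 (SE 0.043, limma adjusted p = 1.55e-05) in del-4 and 0.24 (SE 0.045, limma adjusted p = 0.000396) in del-56, with no overlap between either clone and WT. *SDHA*, the flavoprotein that oxidizes succinate, had the opposite sign. *SDHA* had normalized counts of 14256, 13878 and 14091 in del-4, 14549, 14976 and 14199 in del-56 and 14222, 15761 and 15704 in WT. Its change was -0.11 (SE 0.040, limma adjusted p = 0.0343) in del-4 and -0.062 (SE 0.043, limma adjusted p = 0.286) in del-56. WT replicate 1 lay among the deletion libraries, and the adjusted p in del-4 reached 0.189 with a library left out. *SDHA* lies inside a longer gene model on the same strand whose value was 162% of its own. *SDHC* and *SDHD* anchor the complex in the membrane, and neither was called in del-4, with values of 0.021 (SE 0.040, limma adjusted p = 0.723) and 0.080 (SE 0.035, limma adjusted p = 0.0825).

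Complex III carries electrons from ubiquinol to cytochrome c. Of its 9 nuclear members, 5 were higher and 2 lower in del-4 (55.6% and 22.2%, against 20.5% and 20.2% of all genes). In del-56, 2 were higher and 3 lower (22.2% and 33.3%, against 19.2% and 20.5%). *UQCRH*, the hinge protein, rose in both clones. *UQCRH* was measured at 40607, 36703 and 39783 normalized counts in the del-4 libraries, 36312, 38349.6 and 39273 in del-56 and 33088, 31874 and 31529 in WT. The change was 0.28 (SE 0.040, limma adjusted p = 2.23e-05) in del-4 and 0.24 (SE 0.040, limma adjusted p = 0.000165) in del-56, and no deletion library fell into the WT range. *UQCRQ*, a small subunit, rose by 0.18 (SE 0.037, limma adjusted p = 0.000644) and 0.11 (SE 0.037, limma adjusted p = 0.0248). It shares 255 bases with *GDF9*, whose value was 39.6% of that of *UQCRQ*. Without single libraries the adjusted p of *UQCRQ* in del-56 reached 0.117. *UQCRHL*, a copy of *UQCRH* on the same chromosome, was called higher in del-4 (0.51, SE 0.13, limma adjusted p = 0.00347), but its reads could come from *UQCRH*.

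*UQCRC2*, a core protein of complex III, fell in both clones. *UQCRC2* had normalized counts of 17085, 16749.5 and 17264 in del-4, 16085, 17358 and 17469.8 in del-56 and 21008, 21225 and 20799.6 in WT. All deletion libraries were below WT, with changes of -0.30 (SE 0.033, limma adjusted p = 8.47e-07) in del-4 and -0.31 (SE 0.039, limma adjusted p = 1.14e-05) in del-56. *UQCRFS1*, the Rieske iron-sulfur protein, fell by a smaller amount, with -0.13 (SE 0.033, limma adjusted p = 0.00521) in del-4 and -0.14 (SE 0.035, limma adjusted p = 0.00415) in del-56. *UQCRFS1* was measured at 17540.3, 17476 and 17482 normalized counts in the del-4 libraries, 17468, 17318 and 17172 in del-56 and 18682, 19448 and 19190.5 in WT. Its libraries of each clone varied little and did not overlap WT.

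Complex IV, cytochrome c oxidase, passes electrons to oxygen. Of its 15 nuclear members, 7 were higher and 2 lower in del-4 (46.7% and 13.3%, against 20.5% and 20.2% of all genes). In del-56, 2 were higher and 3 lower (13.3% and 20%, against 19.2% and 20.5%). *COX4I1* (ENSG00000131143.10, chromosome 16, positions 85798633 to 85807068, plus strand, GRCh38), the ubiquitous form of the subunit at which ATP regulates the enzyme, fell in both clones. *COX4I1* had normalized counts of 31074, 27825 and 29828 in del-4, 29166, 30963 and 32181 in del-56 and 38838, 36552 and 35168 in WT. Its change was -0.32 (SE 0.044, limma adjusted p = 1.43e-05) in del-4 and -0.26 (SE 0.045, limma adjusted p = 0.000258) in del-56. *COX4I1* shares 976 bases with *EMC8*, which had 12.2% of its value and itself fell by 0.54 in del-4 (limma adjusted p = 1.65e-08) and 0.33 in del-56 (limma adjusted p = 2.05e-05). *COX5B*, a zinc-binding subunit, fell by 0.19 (SE 0.041, limma adjusted p = 0.00128) in del-4 and 0.30 (SE 0.043, limma adjusted p = 3.61e-05) in del-56. *COX5B* was measured at 19048, 17137 and 17605 normalized counts in the del-4 libraries, 15476, 17122 and 16965 in del-56 and 20963, 20389 and 19770.2 in WT. For both genes every deletion library was below every WT library. *COX5A* and *COX7B* moved the other way. *COX5A* rose by 0.20 (SE 0.038, limma adjusted p = 0.000304) in del-4 and 0.13 (SE 0.040, limma adjusted p = 0.0142) in del-56, and *COX7B* by 0.18 (SE 0.042, limma adjusted p = 0.00249) and 0.17 (SE 0.046, limma adjusted p = 0.00948).

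Several complex IV subunits have tissue-specific paralogs, which were low in these cells. *COX7B2* had few reads. *COX7B2* had normalized counts of 29.8, 43.8 and 52.2 in del-4, 22.9, 32.1 and 18.2 in del-56 and 67.6, 53.1 and 66.0 in WT. It fell in del-56 (-1.34, SE 0.34, limma adjusted p = 0.00470, and an adjusted p of up to 0.0653 with a library left out) and had a value of -0.59 (SE 0.31, limma adjusted p = 0.143) in del-4. *COX7A1*, the muscle form, stayed between 3.64 and 26.9, *COX6B2*, the testis form, between 0.943 and 16.1, and *COX8C* between 0 and 6.03, and none of these was called. *COX8C* lies inside *UNC79*, so its reads may be those of *UNC79*. Among other members of these paralog sets, *COX6A1* (0.20), *COX6B1* (0.16), *COX7A2* (0.16) and *COX7A2L* (0.17) were called higher in del-4 and not in del-56. *COX7B* was called higher and *COX4I1* lower in both clones, as given above. *COX8A* was not called in either clone. *COX6A1* and *COX8A* share their span with longer gene models on the same strand, whose values were 123% and 103% of theirs.

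**Figure D4:**
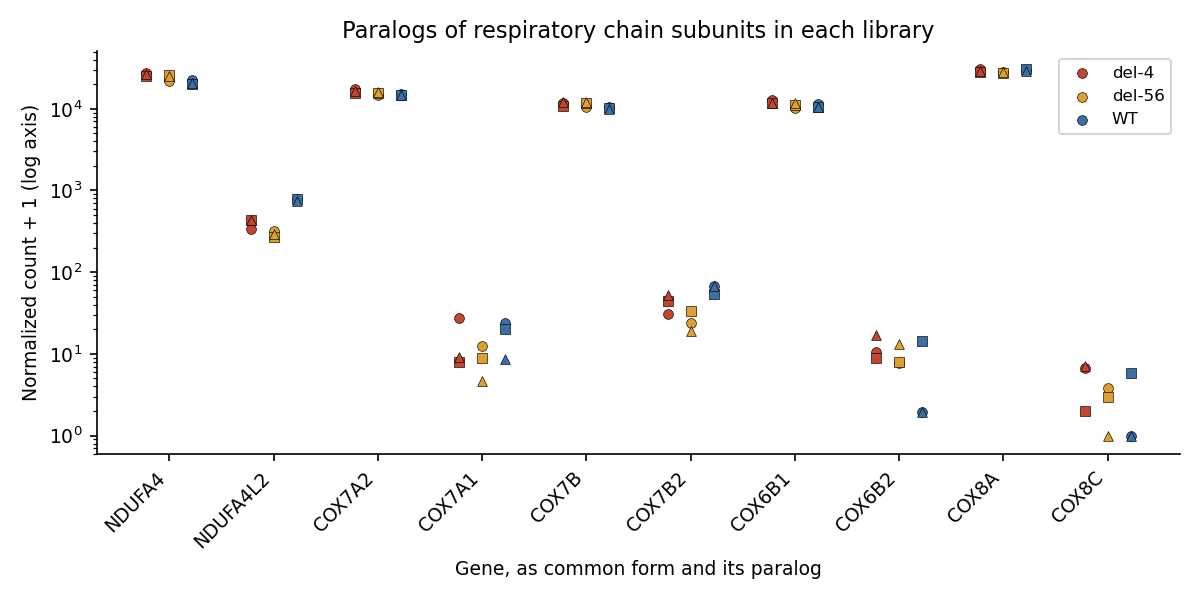
Normalized count plus 1 in each library (vertical log axis) for common subunits and their paralogs, with colour for the clone and shape for the replicate. *NDUFA4L2* lay at 268 to 439.9 in the deletion clones and at 736 to 779.9 in WT, and the paralogs *COX7A1*, *COX7B2*, *COX6B2* and *COX8C* stayed at or below 67.6 in all libraries.

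In del-4, ATP synthase had the largest share of higher calls of the nuclear complexes. There 15 of 20 nuclear members were higher (75%) and 1 lower (5%), against 20.5% and 20.2% of all genes. In del-56, 5 were higher (25%) and 1 lower (5%), against 19.2% and 20.5%, so the share of higher calls was near the background. The 20 include the read-through gene *ATP5MF-PTCD1* and the copy *ATP5MGL*. The median log2 fold change of these members was 0.17 in del-4, against 0.064 in del-56. *ATP5F1A* encodes the alpha subunit of the catalytic head. *ATP5F1A* was measured at 81417, 82527 and 82726 normalized counts in the del-4 libraries, 80218, 83811 and 83985 in del-56 and 74718, 73724 and 72833 in WT. Its change was 0.16 (SE 0.036, limma adjusted p = 0.00195) in del-4 and 0.16 (SE 0.040, limma adjusted p = 0.00355) in del-56, with no overlap with WT, but under quantile normalization the del-4 value was -0.0079. The catalytic beta subunit gene *ATP5F1B* was not called, with 0.10 (SE 0.042, limma adjusted p = 0.0762) in del-4 and 0.055 (SE 0.045, limma adjusted p = 0.376) in del-56.

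*ATP5PB* and *ATP5PF*, parts of the stalk that holds the head, rose in both clones, *ATP5PB* by 0.19 (SE 0.036, limma adjusted p = 0.000381) and 0.18 (SE 0.043, limma adjusted p = 0.00259), and *ATP5PF* by 0.19 (SE 0.052, limma adjusted p = 0.00650) and 0.19 (SE 0.062, limma adjusted p = 0.0217). *ATP5PB* shares 393 bases with *WDR77*, whose value was 28.3% of its own, and *ATP5PF* shares 1104 bases with *GABPA*, whose value was 63.0% of its own. *ATP5IF1*, the inhibitor of the enzyme's reverse reaction, was called higher in del-4. *ATP5IF1* had normalized counts of 23036, 21394 and 21689 in del-4, 18061, 19053 and 19223 in del-56 and 18315, 17469.7 and 18001 in WT. The change was 0.30 (SE 0.037, limma adjusted p = 4.06e-06) in del-4 and 0.067 (SE 0.038, limma adjusted p = 0.185) in del-56, and del-4 lay above del-56 in every library (a difference of 0.23, SE 0.039, limma adjusted p = 0.000369). The ATP5MC genes encode the same ring subunit c, and their calls were not alike. *ATP5MC3* fell by 0.12 (SE 0.035, limma adjusted p = 0.00837) in del-4 and 0.19 (SE 0.044, limma adjusted p = 0.00231) in del-56. *ATP5MC3* was measured at 24439.7, 23155 and 23876 normalized counts in the del-4 libraries, 20989, 23463 and 23621 in del-56 and 25482, 26039.5 and 26274 in WT. All deletion libraries lay below WT. *ATP5MC2* was higher in del-4, by 0.10 (SE 0.035, limma adjusted p = 0.0264), and *ATP5MC1* had a value of 0.10 (SE 0.045, limma adjusted p = 0.0978) there.

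Members were also set beside their chromosome neighbours, taken as the 50 nearest tested genes outside the set. Earlier results of these data had shown chromosome stretches with shifted values, and the regions below were chosen with those known. The counts and medians there describe the members and are not separate support for a shift. All 4 nuclear members on chromosome 16, which were *COX4I1*, *NDUFAB1*, *NDUFB10* and *UQCRC2*, were lower in both clones (100%). Their medians were -0.27 (del-4) and -0.32 (del-56), and the median of their neighbours was -0.32 and -0.29. On chromosome 1 before position 120000000, all 6 members were higher in del-4 (100%) and 4 in del-56 (66.7%). Their medians were 0.30 and 0.24, beside 0.22 and 0.27 for their neighbours. The chromosome 1 members were *ATP5IF1*, *ATP5PB*, *NDUFS5*, *SDHB*, *UQCRH* and *UQCRHL*. On chromosome 2, which carries *EPCART*, 6 of 7 members were lower in each clone (85.7%), with medians of -0.19 and -0.20 beside -0.12 and -0.087. Of the 79 members elsewhere, 40 were higher and 7 lower in del-4, and 16 higher and 13 lower in del-56. Over the 91 nuclear members with a mean of at least 100, Pearson's r between a member's change and its neighbours' median was 0.517 for del-4 and 0.522 for del-56, with Spearman's rho of 0.490 and 0.647, given as a description across genes of the same libraries. Whether the copy number of these regions differs between the clones was not tested.

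**Figure D5:**
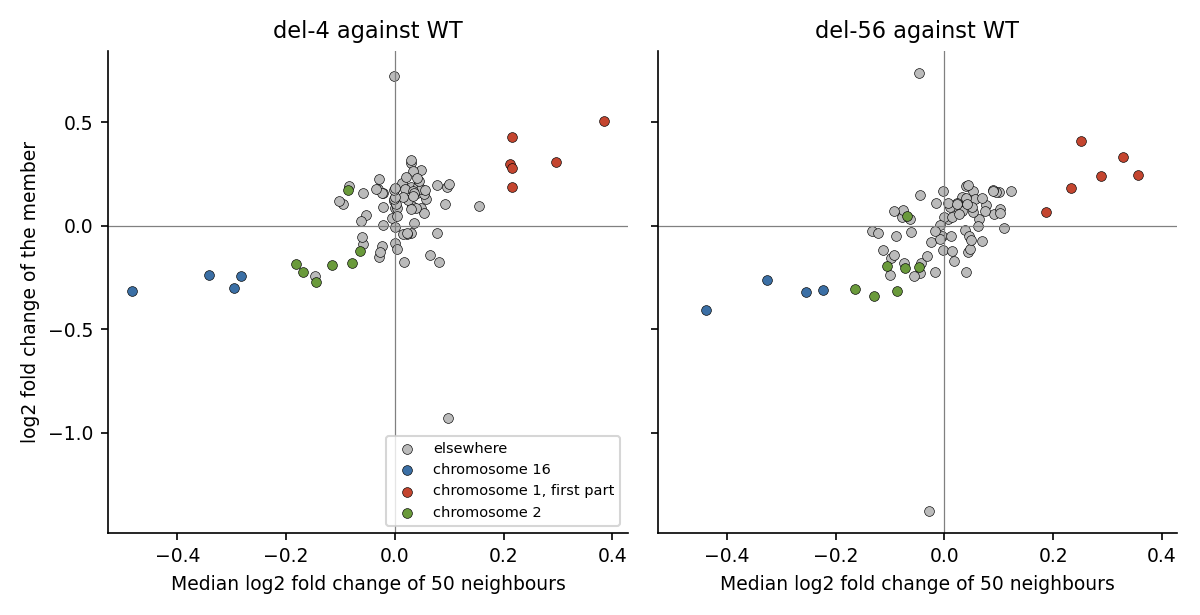
Log2 fold change against WT of 91 nuclear members (vertical axis) against the median of their 50 neighbours (horizontal axis), for del-4 and del-56, coloured by chromosome. Members on chromosome 16 sat low with their neighbours and members on the first part of chromosome 1 sat high, and the isolated points are *NDUFAF6* above and *NDUFA4L2* below.

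The deletion clones were compared with each other to see where they differed. Of the 109 members, 27 were higher in del-4 than in del-56 and 0 lower by limma, against a background of 10.9% higher and 9.0% lower over 17447 genes. At an unadjusted p under 0.05, 39 were higher and 0 lower, and edgeR and DESeq2 also called 0 lower (27 and 25 higher). The libraries of the clones did not overlap for 33 of the 109 members, all higher in del-4, where the background was 17.6% higher and 17.1% lower. Calls fell on 20 of 96 nuclear members (20.8%) and 7 of 13 mitochondrial members (53.8%). The mitochondrial count was 0 in 1 fit of all 9 libraries (6 at an unadjusted p under 0.05), and 5 with replicate 1 left out of both clones. It was 0 without del-4 replicate 1 or without del-56 replicate 2 or 3, 4 or 1 when del-4 lacked replicate 2 or 3, and the fits with a count of 0 had 2 or 3 at an unadjusted p under 0.05. The nuclear count of 20 became 3 to 11 when del-4 replicate 1 or 3, or any del-56 library, was left out, and 4 without replicate 1 of both clones. Calls over all genes fell too, from 1898 higher to 1050 or 1046 without del-4 replicate 1 or 3. They were 1770, 1070 or 1065 without del-56 replicate 1, 2 or 3, and 922 without replicate 1 of both clones. The fit of all 9 libraries called 1945 higher over all genes.

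Complex I core subunits and chromosome 19 genes were among the members that differed between the clones. Of the 12 members on chromosome 19, 7 were higher in del-4 (58.3%, background 10.9%), with a median of 0.19 beside 0.092 for their neighbours. *NDUFS7*, a core subunit that holds the last iron-sulfur cluster before ubiquinone, is one of them. *NDUFS7* had normalized counts of 7717, 7084 and 7297 in del-4, 6924, 6393 and 6479 in del-56 and 7373, 7978 and 8039 in WT. Its difference between the clones was 0.16 (SE 0.045, limma adjusted p = 0.0180). *NDUFS8* differed by 0.14 (SE 0.048, limma adjusted p = 0.0401) and *NDUFV1* by 0.13 (SE 0.035, limma adjusted p = 0.0129). *NDUFA4L2* was less reduced in del-4, with a difference of 0.45 (SE 0.14, limma adjusted p = 0.0319). *SHMT2*, which shares bases with it, was also higher in del-4 than in del-56 (0.17, limma adjusted p = 0.00272). Among mitochondrial genes, *MT-ND3* had the largest difference, 0.39 (SE 0.11, limma adjusted p = 0.0215), although its libraries overlapped between the clones. With a library left out, the adjusted p reached 0.171 for *NDUFA4L2* and 0.289 for *MT-ND3*.

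Other genes of the pathway were listed apart from the members, and their shares stand beside the background of 20.5% higher and 20.2% lower for del-4, with 19.2% and 20.5% for del-56. Of 5 electron carriers, the one called against WT was *ETFB*, which passes electrons from fatty acid oxidation and was lower in del-56 (-0.17, SE 0.038, limma adjusted p = 0.00216). Of 32 assembly factors for complexes II, III and IV, 6 were higher and 8 lower in del-4 (18.8% and 25%), near the background, and 3 higher and 12 lower in del-56 (9.38% and 37.5%). *UQCC1*, which assembles complex III, fell from 1519 ± 90.6 (SD, n = 3) in WT to 835 ± 31.1 (SD, n = 3) in del-4 and 1288 ± 93.8 (SD, n = 3) in del-56, a log2 fold change of -0.86 (SE 0.074, limma adjusted p = 3.94e-08) and -0.24 (SE 0.074, limma adjusted p = 0.0171). *COX18*, which inserts part of *MT-CO2* into the membrane, fell by 0.36 (SE 0.041, limma adjusted p = 1.26e-06) and 0.46 (SE 0.045, limma adjusted p = 6.95e-07). Of 10 further complex I assembly factors, del-4 had 2 lower (20%) and del-56 had 5 (50%).

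Of 26 genes for transcription, replication and RNA processing in mitochondria, 2 were higher and 7 lower in del-4 (7.69% and 26.9%), and 3 higher and 7 lower in del-56 (11.5% and 26.9%). *TFAM*, which packages and transcribes mitochondrial DNA, had 13556 ± 103 (SD, n = 3) normalized counts in WT, with del-4 at 10735 ± 337 (SD, n = 3) and del-56 at 14364 ± 526 (SD, n = 3), a change of -0.34 (SE 0.036, limma adjusted p = 5.52e-07) in del-4 and 0.083 (SE 0.038, limma adjusted p = 0.0942) in del-56. Of 8 nuclear regulators, 1 was higher in del-4 (12.5%) and 3 in del-56 (37.5%). *PPARGC1A*, a coactivator of mitochondrial gene programmes, had few reads, with 50 ± 18.8 (SD, n = 3) in WT, while del-4 was at 27.1 ± 7.83 (SD, n = 3) and del-56 at 153 ± 28.3 (SD, n = 3). It rose by 1.64 (SE 0.28, limma adjusted p = 0.000221) in del-56 and had a value of -0.84 (SE 0.37, limma adjusted p = 0.0826) in del-4. Of 13 ubiquinone genes, 1 was higher and 3 lower in del-4 (7.69% and 23.1%), and 1 higher and 6 lower in del-56 (7.69% and 46.2%). Of 13 citric acid cycle genes, 2 were higher and 6 lower in del-4 (15.4% and 46.2%), and 1 higher and 6 lower in del-56 (7.69% and 46.2%). *CS*, which makes citrate, rose by 0.22 (SE 0.035, limma adjusted p = 5.36e-05) and 0.19 (SE 0.036, limma adjusted p = 0.000568), while *DLD*, a subunit that several mitochondrial dehydrogenases share, fell by 0.39 (SE 0.032, limma adjusted p = 2.90e-08) and 0.49 (SE 0.047, limma adjusted p = 5.64e-07).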

How the data were processed

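As deposited, the signal values are counts that the authors had normalized, with 1 DESeq2 size factor per library. Per the labels and methods, the authors prepared stranded polyA libraries from 3 cultures per clone, trimmed paired reads with Trim Galore 0.6.5, aligned them to GRCh38 with STAR 2.71a and used BEDTools 2.27.1 and GENCODE version 38 to count reads for protein-coding genes. In every library 100% of values were whole multiples of a step (within 0.001 read), so reads were recovered for edgeR 4.0.16 and DESeq2 1.42.0, which were alternatives. Most values of 1 to 20 reads (83.8%) were even numbers.

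The main test was limma 3.58.1 (R 4.3.3, with a variance trend) on log2 of the normalized count plus 1, for genes whose mean reached 1 in the 6 libraries compared, with Benjamini-Hochberg adjustment over all genes and calls at an adjusted p of 0.05. P-values measure the spread between cultures of a clone. Symbols and positions were taken from GENCODE version 44 (19905 of 19984 identifiers matched, 79 not). The fits were tested on simulated data.

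Named genes were all mitochondrial members, *SDHA* to *SDHD*, the core and catalytic subunits, *ATP5IF1*, *UQCRFS1*, paralog sets, and per complex the 2 largest rises and 2 largest falls among members called in both clones, members past 1 on the log2 scale, and the 3 largest and 3 smallest called differences between the clones. Other members were named where a count or an overlap needed them, and some named by this rule are not reported here. The members and lists were chosen with earlier results of these data known. Alternatives were other pseudocounts (0.5 and 5), no filter, a filter at a mean of 10, 2 rescalings to equal totals, quantile normalization, the replicate number as a block, 1 fit of all 9 libraries, and leaving out libraries. Leaving replicate 1 out of both groups compared, and leaving out members that share a span or sequence, were chosen after seeing the data. A floor or interval would cover counting error only. Figures and summaries were made in Python 3.11.15.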

Additional observations from a re-analysis of the deposited data

Results flagged for a closer look

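Of the 54 named members, 15 differed between the deletion clones in the direct test of del-4 against del-56 (limma, adjusted over all genes). The background in this test was 10.9% of all genes higher and 9.0% lower. Some named members were chosen by their called difference between these clones, so the count of 15 is partly a product of that choice. All 15 were higher in del-4. The log2 differences of the nuclear members were 0.45 for *NDUFA4L2*, 0.23 for *ATP5IF1*, 0.17 for *NDUFB10*, 0.16 for *NDUFS7*, 0.14 for *NDUFS8*, 0.13 for *NDUFV1*, 0.13 for *COX6A1* and 0.13 for *COX7A2L*. For each of these 8 genes every del-4 library lay above every del-56 library. Those of the mitochondrial members were 0.39 for *MT-ND3*, 0.28 for *MT-ND2*, 0.24 for *MT-CO1*, 0.23 for *MT-CO2*, 0.19 for *MT-ND1*, 0.15 for *MT-CYB* and 0.13 for *MT-ATP8*. *MT-CO2* and *MT-CYB* separated the libraries of the clones, and the other 5 mitochondrial genes overlapped between them. When libraries were left out in 7 further fits, *ATP5IF1* kept the call in all 7, with an adjusted p of up to 0.0243, and the other 14 lost it in at least 1. Their highest adjusted p was 0.0819 for *NDUFV1*, 0.132 for *NDUFB10*, 0.135 for *NDUFS7*, 0.143 for *COX6A1*, 0.171 for *NDUFA4L2*, 0.234 for *COX7A2L* and 0.257 for *NDUFS8*. It was 0.0792 for *MT-CO2*, 0.159 for *MT-ND1*, 0.195 for *MT-CYB*, 0.239 for *MT-CO1*, 0.255 for *MT-ND2*, 0.264 for *MT-ATP8* and 0.289 for *MT-ND3*, and all 15 differences stayed above 0 in these fits. In 1 fit of all 9 libraries 0 of the mitochondrial members were called between the clones by limma, with 6 at an unadjusted p under 0.05, 7 called by edgeR and 4 by DESeq2 in the fits of those clones alone.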

How the results depend on the processing

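Counts of members called kept within 1.5 times under pseudocounts of 0.5 and 5, no filter, a mean of at least 10, edgeR and the replicate block, which gave 48 nuclear members higher and 17 lower in del-4, 14 and 21 in del-56, and 11 and 4 mitochondrial members higher. Replicate numbers were compared by deviations from the clone mean, over genes with a mean of at least 100. Same-numbered libraries of different clones correlated at -0.118 to 0.0671 and others at -0.0938 to 0.0901. Of the 9 libraries, 2 were closest to their own number in both other clones. However, replicate 1 had the highest mitochondrial share in each clone, and whether the mitochondrial genes share a replicate effect was not tested. After rescaling to the same total, with and without mitochondrial genes, nuclear members higher in del-4 were 24 and 26 (47 in the reported fit), lower 26 and 26 (17), and higher in del-4 than del-56 9 and 9 (20), with 12 under quantile normalization. Over all genes, the rescaled fits of del-4 called 2364 and 2425 higher (3565) and 4932 and 4875 lower (3517). Between the clones they called 1380 and 1391 higher (1898). Mitochondrial members higher in del-56 than WT were 0 under quantile normalization and with DESeq2 (3 reported), and those higher in del-4 than del-56 were 2, 4 and, in 1 fit of all 9 libraries, 0 (7 reported).

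Leaving out libraries, alone or as replicate 1 of both groups, gave 22 to 52 nuclear members higher in del-4 and 7 to 44 in del-56, 5 to 13 and 0 to 9 mitochondrial members higher, and between the clones 3 to 17 nuclear and 0 to 9 mitochondrial members higher and 0 to 1 nuclear member lower (1 without del-56 replicate 1). Such fits have fewer samples, and each also called fewer genes higher over all genes than the reported fit. Of 36 named genes called in del-4, 25 kept the call in every such fit, and of 28 in del-56, 18 did. The highest adjusted p (limma) of those that did not was, in del-4, 0.119 for *ATP5MC2*, 0.106 for *ATP5PF*, 0.0792 for *COX6B1*, 0.0534 for *COX7A2*, 0.0620 for *COX7A2L*, 0.0901 for *COX7B*, 0.0980 for *MT-ATP8*, 0.0658 for *MT-CYB*, 0.154 for *MT-ND4*, 0.305 for *MT-ND4L* and 0.189 for *SDHA*, and in del-56 0.208 for *ATP5PF*, 0.0948 for *COX5A*, 0.0932 for *COX7B*, 0.0653 for *COX7B2*, 0.266 for *MT-ATP6*, 0.247 for *MT-CO2*, 0.126 for *MT-CO3*, 0.146 for *NDUFA4*, 0.183 for *NDUFS3* and 0.117 for *UQCRQ*. In other settings 10 of the 36 lost the call in del-4. *ATP5F1A*, *MT-ATP6*, *MT-ND4*, *MT-ND4L* and *ATP5MC2* did so under quantile normalization (adjusted p = 0.876, 0.0900, 0.486, 0.0713 and 0.297), *ATP5MC2*, *ATP5PF*, *COX6B1*, *COX7A2*, *COX7A2L* and *MT-ND4L* after rescaling (up to 0.437), *MT-ATP8*, *MT-ND4* and *MT-ND4L* with DESeq2 (0.0846, 0.116 and 0.252), and *MT-ND4L* without a filter (0.0563). In del-56, 7 of the 28 lost it, which were *ATP5F1A*, *MT-ATP6*, *MT-CO2* and *MT-CO3* under quantile normalization (0.172, 0.261, 0.127 and 0.126), the last 3 also with DESeq2 (0.206, 0.205 and 0.0818), *MT-ATP6* without a filter (0.0519), *NDUFS3* and *UQCRQ* after rescaling (up to 0.124), and *ATP5PF*, *NDUFS3* and *UQCRQ* under the replicate block (0.0569, 0.0719 and 0.0850).

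Signs changed for the following genes, of which *ATP5F1A* in del-4 was called in the reported fit. Under quantile normalization the log2 fold change in del-4 was -0.0079 for *ATP5F1A*, -0.085 for *ATP5F1B*, -0.075 for *MT-ND5* and -0.018 for *SDHC*, and in del-56 -0.086 for *ATP5F1B*, -0.090 for *MT-ND2* and -0.014 for *MT-ND4*. Rescaled with and without mitochondrial genes, *MT-ND5* was -0.038 and -0.034 in del-4, *MT-ND6* -0.0098 and -0.0062, and *SDHC* -0.049 and -0.045. With libraries left out, values in del-4 ran from -0.039 to 0.16 for *MT-ND5*, -0.010 to 0.20 for *MT-ND6* and -0.0083 to 0.062 for *SDHC*, and in del-56 from -0.010 to 0.092 for *ATP5MC1*, -0.0090 to 0.13 for *COX6B1*, -0.48 to 1.18 for *COX8C*, -0.082 to 0.23 for *MT-ND2*, -0.29 to 0.14 for *MT-ND3*, -0.012 to 0.16 for *MT-ND4L*, -0.10 to 0.11 for *MT-ND5*, -0.11 to 0.11 for *MT-ND6*, -0.051 to 0.020 for *SDHC* and -0.065 to 0.025 for *SDHD*. The cause of these changes was not tested.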
